A study of Mus musculus with 2 samples.

Results

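A confidently split read is a single nanopore read whose pieces aligned to separate places of the mouse genome with high mapping quality. Those outside the insertion locus were chosen on the number of alignments, their mapping quality and their position, and then put into classes by position and strand. Each had at least 2 alignments, every one of them on chromosomes 1 to 19 with a mapping quality of 30 or more, and none touching chr2:75260000-75290000, which holds the transgene insertion site, or chr2:74073413-74076528, which holds the native II1 element. Mapping quality is the aligner's score, from 0 to 60, for how uniquely an alignment was placed. Of 11448 reads in the 2 libraries, 436 had several alignments and 155 met the rule, 31 of 3658 in the 542 library and 124 of 7790 in the 320 library. They held 339 alignments.

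The study asked how the II1 limb enhancer works when its transgene is moved into T-DOM, the regulatory domain beside the HoxD cluster, and sequenced genomic DNA by nCATS, in which Cas9 cuts next to a target select fragments for nanopore sequencing. Both were made from E12.5 yolk sac DNA, strain B6CBAF1, with embryos from crosses between heterozygous adults, 1 with the genotype II1TDOM 542 and 1 with II1TDOM 320, and the labels give no treatment and no zygosity. There was 1 library per genotype, so every test compares 2 libraries and not 2 alleles. Reads away from the target are background of the selection, and confident reads (every alignment passing the limits above, split or not) added up to 11.4 Mb aligned over 3114 reads of the 542 library and 65.5 Mb over 6833 reads of the 320 library.

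A long-read aligner breaks a read into several alignments where the sequenced molecule departs from the reference, through a rearrangement, an insertion or deletion, or a chimera made during library preparation. Mouse strains differ in where retrotransposons lie, so a copy present in the reference and missing from the sequenced chromosome leaves a gap between 2 alignments of 1 read. L1 elements end in an A-rich tail and elements with long terminal repeats (LTRs) begin with TG and end with CA, and both are flanked by short direct repeats of the genomic target, the target site duplications made at insertion.

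The edges of some gaps between same-strand pieces carried direct repeats, and these are shown because the counts of gaps below turn on them. The sequences are reference bases, not bases of the reads. They are RefSeq bases of build GRCm38, plus strand, and the capitals mark the direct repeat, of which 1 copy lies against the last aligned base on the left of the gap and the other against the first aligned base on its right. By a search chosen after seeing the data, such a repeat of 6 bp or more was present at 29 of 58 gap places, and only gaps with one are shown. The first set holds 3 of the 5 largest gaps of the 542 library.
B3gat2 intron gap left edge, chr1:23782302-23782341: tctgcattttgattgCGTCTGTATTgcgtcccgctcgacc
B3gat2 intron gap right edge, chr1:23786474-23786513: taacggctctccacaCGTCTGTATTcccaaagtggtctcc
Chromosome 1 gap outside genes left edge, chr1:173254387-173254429: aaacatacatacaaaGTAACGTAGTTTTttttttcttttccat
Chromosome 1 gap outside genes right edge, chr1:173261196-173261238: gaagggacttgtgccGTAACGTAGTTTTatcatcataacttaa
Chromosome 8 gap outside genes left edge, chr8:34243859-34243894: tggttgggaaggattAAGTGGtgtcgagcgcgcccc
Chromosome 8 gap outside genes right edge, chr8:34246704-34246739: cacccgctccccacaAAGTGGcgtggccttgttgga

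The next set holds 4 of the 5 largest gaps of the 320 library and a gap in Angpt1, which encodes angiopoietin 1, that 2 reads shared. Capitals again mark the direct repeat, which at the chromosome 8 gap was a run of A alone within the 3-bp limit on the edges and was part of a longer shared stretch of 16 bp without that limit.
Chromosome 8 gap outside genes left edge, chr8:15442180-15442219: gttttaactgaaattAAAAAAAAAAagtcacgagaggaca
Chromosome 8 gap outside genes right edge, chr8:15449663-15449702: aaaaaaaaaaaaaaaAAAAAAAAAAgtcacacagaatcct
Chromosome 2 gap outside genes left edge, chr2:80956489-80956532: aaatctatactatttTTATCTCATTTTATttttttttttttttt
Chromosome 2 gap outside genes right edge, chr2:80963910-80963953: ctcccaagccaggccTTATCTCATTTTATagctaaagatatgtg
Gm19026 intron gap left edge, chr1:6430360-6430396: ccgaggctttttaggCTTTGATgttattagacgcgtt
Gm19026 intron gap right edge, chr1:6437471-6437507: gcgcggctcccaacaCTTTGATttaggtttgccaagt
Chromosome 6 gap outside genes left edge, chr6:124974049-124974084: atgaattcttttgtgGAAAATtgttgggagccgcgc
Chromosome 6 gap outside genes right edge, chr6:124981157-124981192: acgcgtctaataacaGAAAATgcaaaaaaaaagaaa
Angpt1 intron gap left edge, chr15:42644409-42644452: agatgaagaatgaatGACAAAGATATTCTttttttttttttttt
Angpt1 intron gap right edge, chr15:42651077-42651120: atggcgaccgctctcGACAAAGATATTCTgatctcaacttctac

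Split reads made up 0.996% of confident reads in the 542 library (95% Clopper-Pearson interval 0.677 to 1.41) and 1.81% in the 320 library (1.51 to 2.16). These intervals, like all those below, cover counting error only. The share was 1.82 times higher in the 320 library (Fisher's exact test, two-sided, p = 0.00213). Counted per Mb aligned, the order was the reverse, with 2.71 split reads in the 542 library and 1.89 in the 320 library, and this difference did not pass 0.05 (exact binomial test, two-sided, p = 0.0891).

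The libraries differed in read length. The median confident read aligned over 2244.5 bp in the 542 library and 6014 bp in the 320 library. Within bins of aligned length, no difference between the libraries passed 0.05 in Fisher's exact tests over 5 bins. Of reads with under 2 kb aligned, 7 of 1414 were split in the 542 library (0.495%) and 8 of 1470 in the 320 library (0.544%, Fisher's exact p = 1, adjusted p = 1). Of reads with 20 kb or more, 4 of 36 were split in the 542 library (11.1%, interval 3.11 to 26.1) and 41 of 866 in the 320 library (4.73%, interval 3.42 to 6.37), with an exact p of 0.0990 and an adjusted p of 0.495. The split share was higher in the longest bin than in the shortest in both libraries. Aligned bases were summed over all pieces of a read, with fold-back bases counted on both strands, so being split itself moves a read to a longer bin, and this difference between bins is partly built in. Had the 542 reads been split at the 320 library's rate in each bin, 34.1 would have been split, against 31 observed. Because being split helps to set a read's bin, neither this count nor the tests within bins separate splitting from read length.

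**Figure D1:**
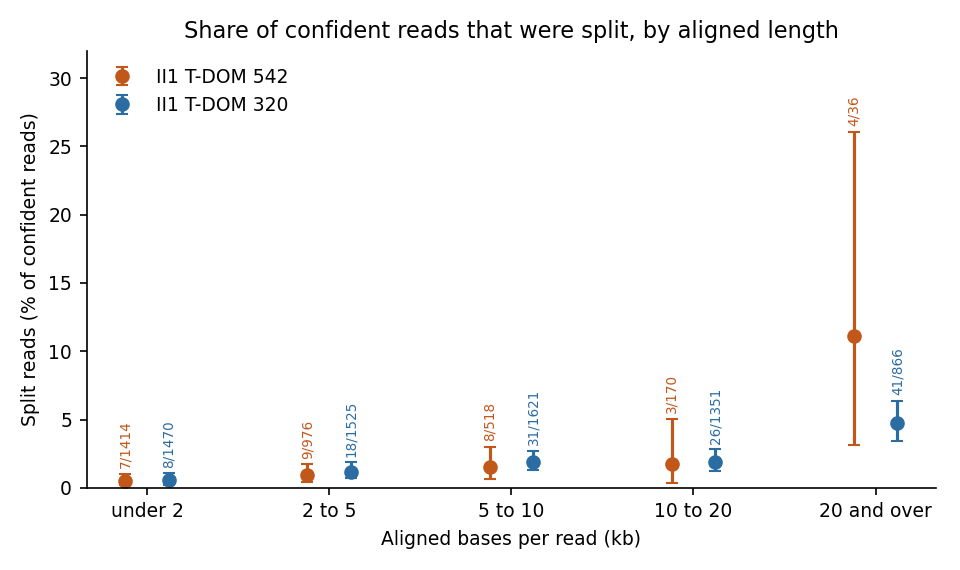
Share of confident reads that were split (percent, y axis) in 5 bins of aligned bases per read (x axis), in the 542 and 320 libraries, with 95% Clopper-Pearson intervals. From 0.495% and 0.544% below 2 kb the shares reach 11.1% and 4.73% at 20 kb or more, and the intervals of the libraries overlap in each bin.

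Values just inside and just outside the limits were as follows. The lowest mapping quality of a split read's alignments was 31, 41 and 47 in the 542 reads nearest the limit and 30, 32 and 33 in the 320 reads nearest it. The nearest reads left out for mapping quality had 28 in the 542 library (3 reads) and 26, 25 and 24 in the 320 library. Most reads left out on this ground were far below it, since an alignment at 0 or 1 was held by 61 of 87 reads of the 542 library and 86 of 118 of the other.

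Split reads fell into 4 classes by the relation of their pieces. Pieces within 100 kb of each other on the same strand made the same-strand class, with 11 of 31 reads in the 542 library (35.5%, interval 19.2 to 54.6) and 67 of 124 in the 320 library (54.0%, interval 44.9 to 63.0). Pieces within 100 kb on opposite strands, called fold-backs here whether or not they overlapped, were found in 7 reads (22.6%) and 25 reads (20.2%). Pieces of 1 chromosome more than 100 kb apart were found in 3 reads (9.68%) and 4 reads (3.23%). Pieces on different chromosomes were found in 10 reads (32.3%) and 28 reads (22.6%). None of the 4 class shares differed between the libraries at an adjusted p of 0.05 (Fisher's exact test, two-sided, adjusted p from 0.287 to 0.805). Around the distance limit, the widest separation kept as near was 51117 bp in the 542 library and 12832 bp in the 320 library, and the narrowest called far was 182273 bp and 122740 bp.

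**Figure D2:**
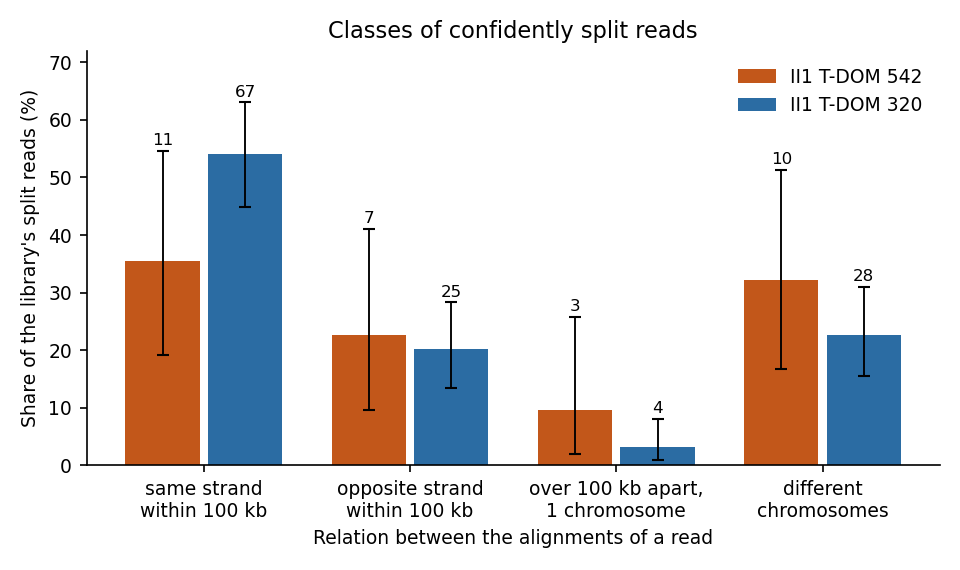
Share of split reads (percent, y axis) in each of 4 classes by the relation of the pieces (x axis), for 31 reads of the 542 library and 124 of the 320 library, with 95% Clopper-Pearson intervals. Same-strand reads make up 35.5% and 54.0%, and the intervals of the libraries overlap in every class.

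Exactly 2 alignments were listed for 29 of 31 split reads of the 542 library and for 109 of 124 of the 320 library. Summed over their pieces, split reads had a median of 4672 aligned bases in the 542 library against 2235 for confident unsplit reads, and 10561 against 5933 in the 320 library. Their single alignments were shorter than those of unsplit reads, with medians of 1867 bp and 4020.5 bp. Their shortest piece had a median of 953 bp and 1902.5 bp. By class, the medians of the 320 library were 14151 aligned bases for same-strand reads, 10031 for fold-backs, 12377 for far pieces and 4817.5 for different chromosomes. Those of the 542 library were 2496, 8658, 6204 and 3502. Repeat-masked bases, written in lower case in the reference, made up 33.5% of the autosomes. Their median share of a split alignment was 30.7% for the 542 library against 25.2% of unsplit ones. For the 320 library it was 27.0% against 26.3%. Alignments masked over 90% or more of their length were 6 of 65 split ones (9.23%) against 105 of 3083 unsplit ones (3.41%) in the 542 library. The 320 counts were 15 of 274 (5.47%) and 119 of 6709 (1.77%). Alignment midpoints lay in genes for 46.2% and 49.3% of split alignments, against 50.9% and 51.0% of unsplit ones. No test was run on these descriptions.

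**Figure D3:**
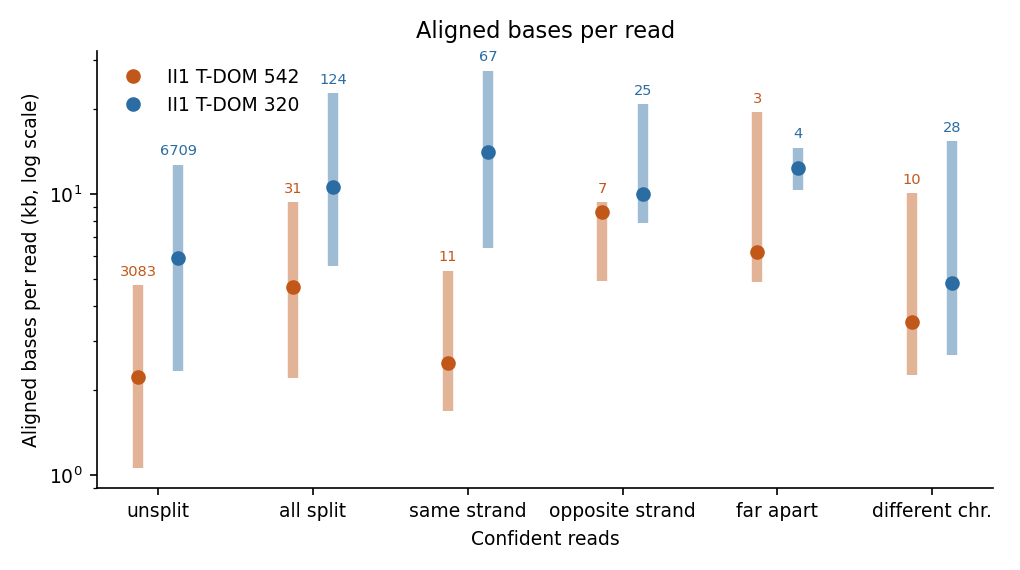
Aligned bases per read (kb, log y axis) for confident unsplit reads, all split reads and the 4 classes of split reads, with points at the median, bars over the quartiles and the number of reads above. Bases are summed over the pieces of a read, and in bp the medians of unsplit and all split reads are 2235 and 4672 in the 542 library and 5933 and 10561 in the 320 library, with wide overlap.

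Same-strand reads skipped reference bases in most cases. Neighbouring pieces left a gap of more than 100 bp at 9 junctions in the 542 library (217 to 6796 bp) and 51 in the 320 library (318 to 12832 bp). Another stretch of 196 bp in the 320 library was covered by a further piece of the same read and was not counted. The 60 gaps lay at 58 distinct places, with a median of 3935.5 bp. No alignment of another read crossed any of the 58 places with 100 bp on each side. All alignments added up to 13.4 Mb in the 542 library and 74.7 Mb in the 320 library, a small part of the genome. Crossings could hardly be found at this depth, so their absence does not tell whether the skipped bases were present. Of the places, 38 were masked over 90% or more and 16 under 50%, and 27 lay outside genes, 24 in introns of coding genes, 4 in other introns and 3 over exons. These exons included those of the processed pseudogenes Gm9531 and Gm15801. The Gm15801 place also lay in an intron of Aldh18a1 and was counted under exons alone. For comparison, midpoints of unsplit alignments lay in genes for 50.9% in the 542 library and 51.0% in the 320 library. They lay in coding genes for 43.1% and 43.5%, so the gene counts of the places are close to these shares. Masking and further copies were not measured for other stretches of like length. A gap of 451 bp at chr1:183341395-183341845 in an intron of Mia3, whose protein carries collagen out of the endoplasmic reticulum, held 448 unread bases (N) of the reference and was chosen after its values were seen.

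Direct repeats were first searched at equal offset from both edges, within 30 bp, which gave a repeat of 6 bp or more at 4 of 58 places, against 2 for the outer ends of the same reads. A search chosen after seeing the data, for copies lying against both edges (the first ending within 3 bp of the left edge and the second starting within 3 bp of the right edge), gave 29 places, against 4 at the outer ends. At 10 bp or more it gave 19 places against 1. At 2 of the 29 places the repeat was a run of A alone. The exception at the outer ends was a 31-bp repeat at 1 read of the 542 library. The median repeat was 5.5 bp at the gaps and 3 bp at the outer ends. The outer ends are not junctions between pieces, so they cannot show how much the aligner's placing of edges adds to the counts at the gaps.

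Gap length separated these places. All 21 gaps of 5 to 8 kb had a repeat of 6 bp or more against the edges, with a median of 14 bp, all were masked over 90% or more, and 20 had 100 or more further copies in the genome (80% of the length at 90% identity). Of 28 gaps of 1 to 5 kb, 7 had such a repeat. Of 8 gaps under 1 kb, none did, and all were masked under 50%, but the Mia3 gap is 1 of them and its N bases carry no sequence.

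**Figure D4:**
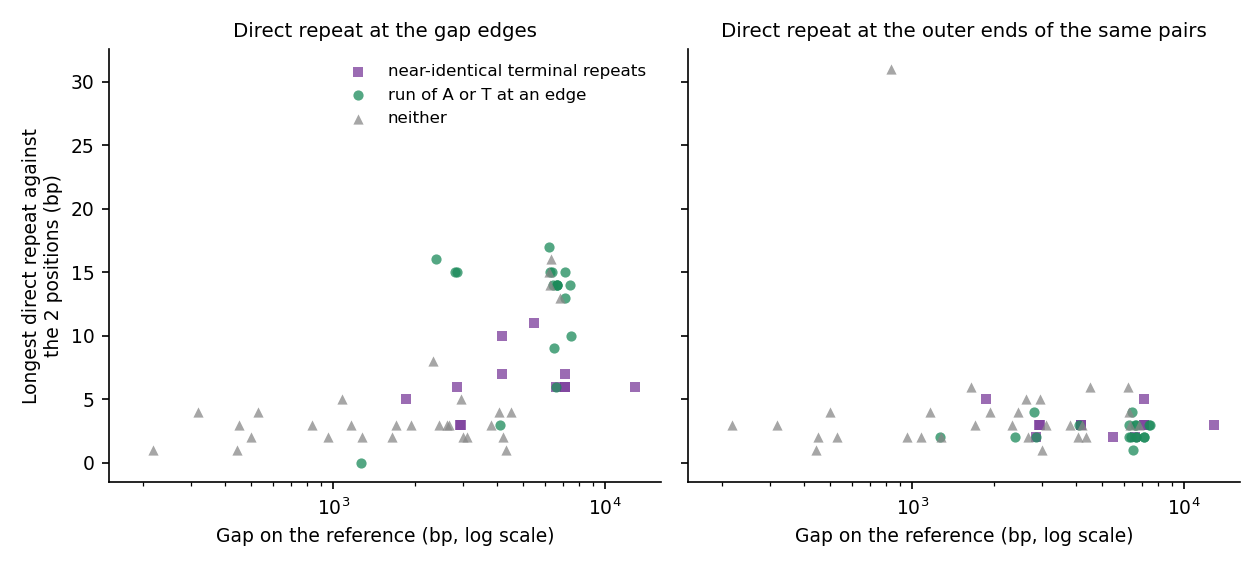
Length of the direct repeat lying against the edges (bp, y axis) against gap length (bp, log x axis) for 60 same-strand gaps, coloured by structure, at the gap edges (left) and at the outer ends of the same pairs of pieces (right). At the edges, gaps of 5 to 8 kb all have 6 bp or more, with a median of 14 bp, and gaps under 1 kb all have less.

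Gaps with terminal repeats, meaning the first and last stretch of the gap alike over 100 bp or more at 90% identity or more, numbered 11 places of 1859 to 12832 bp. Their terminal repeats were 333 to 489 bp long and identical at 8 places, with 96.9% as the lowest identity. The direct repeat was 6 bp or more at 9 places, with a median of 6 bp. At 4 of the 11, the stretch between the copies began with TG and ended with CA, the ends of an LTR element. Where the repeat could be shortened to no fewer than 4 bp to let these letters fall at its ends, 9 of the 11 did, with 5 to 9 bp kept. With the same shortening, so did 2 of the 17 places with an A or T run at an edge, described below. Of the 30 places with neither structure, 0 did. The gap in an intron of B3gat2, which encodes a glucuronyltransferase, was 4166 bp (chr1:23782324-23786489), with terminal repeats of 383 bp at 99.2% identity, a direct repeat of 10 bp and 56 copies elsewhere. The chromosome 8 gap of the 542 library (chr8:34243877-34246718) was 2842 bp, with identical terminal repeats of 442 bp, a direct repeat of 6 bp and 264 copies.

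In the 320 library the Gm19026 gap (chr1:6430382-6437485, in an intron of a processed pseudogene) was 7104 bp, with identical terminal repeats of 336 bp and 731 copies. The chromosome 6 gap (chr6:124974070-124981171) was 7102 bp, with terminal repeats of 338 bp at 98.8% identity and 781 copies. Both belonged to a group of 4 gaps of 6617 to 7104 bp that were alike over their length at 90.5% to 98.5% identity. The largest gap of all, 12832 bp at chr18:74745595-74758426 in an intron of Myo5b, a myosin that moves membrane vesicles, had identical terminal repeats of 489 bp, a direct repeat of 6 bp and no further copy.

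Gaps with a run of 8 or more T just inside the left edge or A just inside the right edge, the place of an L1 tail, numbered 17 places of 1260 to 7479 bp. The direct repeat was 6 bp or more at 15 and 10 bp or more at 13, with a median of 14 bp against 2 bp at the outer ends. The run was of T on the left at 9 places and of A on the right at 8. Copies elsewhere ranged from 3 to 12369, with a median of 3400. The chromosome 8 gap of the 320 library (chr8:15442202-15449680) was 7479 bp with 2995 copies. The chromosome 2 gap (chr2:80956518-80963924) was 7407 bp with a repeat of 14 bp and 2812 copies.

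Most of these gaps shared sequence. A group of 16 gaps of 6205 to 7479 bp was linked by 100 alike pairs at 91.2% to 99.5% identity, and 12 of the 16 had an A or T run. All 16 had a direct repeat of 6 bp or more, 8 lay in introns of coding genes, and each had from 832 to 12369 copies elsewhere. The largest gap of the 542 library, 6796 bp at chr1:173254415-173261210 outside genes, had a repeat of 13 bp and 3638 copies. A gap of 6451 bp at chr18:33044081-33050531, in an intron of the kinase gene Camk4, had a repeat of 14 bp. The smallest of the 542 library's 5 largest gaps, 1640 bp at chr12:61968220-61969859, had a repeat of only 2 bp and 16494 copies.

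Another 30 places had neither structure, with medians of 2384.5 bp in length and 56.7% of bases masked. Of these, 25 were like no other gap: none had a repeat of 6 bp or more against the edges, and 17 had no further copy.

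Processed pseudogenes, copies of spliced messages inserted as DNA, lay whole within 2 gaps of the same-strand class that were chosen after their values were seen. The gap of 1260 bp at chr9:81677429-81678688 in the 542 library held the whole of Gm9531, a transcribed processed pseudogene of 1080 bp (85.7% of the gap), with a run of 13 A and 9 copies elsewhere. Its edges had no direct repeat. A gap between pieces of a different-chromosome read of the 320 library also held Gm15951 and Gm13141 whole, at 4.21% and 4.79% of the gap. The gap of 2861 bp at chr19:40558894-40561754 in the 320 library lay in an intron of Aldh18a1, a gene of proline synthesis, and held the whole of Gm15801, of 522 bp (18.2% of the gap). Only 13.1% of it was masked, it began with a run of 27 T, and its direct repeat of 15 bp is in capitals here.
Aldh18a1 intron gap left edge, chr19:40558864-40558908: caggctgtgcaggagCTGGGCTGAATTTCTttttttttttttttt
Aldh18a1 intron gap right edge, chr19:40561740-40561784: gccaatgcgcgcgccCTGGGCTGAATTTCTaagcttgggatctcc

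No place of a split was found in both libraries. Each library covered only a small part of the genome, so shared places could hardly be seen. Within the 320 library, 4 pairs of reads had 2 alignments each within 1 kb of the other read's, and in the 542 library none did. The Angpt1 gap (chr15:42644438-42651091, 6654 bp, 3400 copies) was skipped by 2 minus-strand reads with the same inner edges whose outer ends lay 841 and 9925 bp apart. The pair at chr3:85305146-85308091, in an intron of Gm37240, came from reads of opposite strand with identical outer ends and inner left edges 11 bp apart. The pair that joined chr16:57391113-57391676, in introns of Cmss1 and Filip1l, to chr9:3258792-3259380 also came from reads of opposite strand, with ends of these pieces 0 and 3 bp apart. Of these reads, 1 had only these 2 alignments and the other had 6, so 4 pieces were unmatched. Whether the reads of such a pair came from 1 molecule cannot be told from the alignment tables. The last pair joined places on chromosome 4 that were 1456063 bp apart in 1 of its reads. The outer ends of these pieces lay 718 and 21 bp apart between the reads, but the inner edges lay 1637 and 3416 bp apart. The left pieces of the reads did not overlap, so this pair did not share inner edges as the others nearly or fully did.

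Pieces that abutted within 100 bp met at 13 junctions in 12 reads of all classes, 3 in the 542 library and 10 in the 320 library. At 9 the pieces overlapped, and at 6 of these by 10 to 30 bp. An overlap means that both alignments covered these reference bases, and whether the read held them 2 times was not tested. The following overlaps, in capitals, were chosen after their values were seen and stand beside the direct repeats above.
Erc2 intron overlap, 542 library, chr14:28367247-28367300: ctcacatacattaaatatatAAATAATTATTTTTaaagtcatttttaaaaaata
Arnt2 intron overlap, 542 library, chr7:84318225-84318277: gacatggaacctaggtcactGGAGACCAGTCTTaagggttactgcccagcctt
Epha4 intron overlap, 542 library, chr1:77467845-77467900: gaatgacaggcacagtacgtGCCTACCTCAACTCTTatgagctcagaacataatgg
Chromosome 16 overlap, 320 library, chr16:92220652-92220712: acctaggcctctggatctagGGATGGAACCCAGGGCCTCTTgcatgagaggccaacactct
Cntn4 intron overlap, 320 library, chr6:106397128-106397195: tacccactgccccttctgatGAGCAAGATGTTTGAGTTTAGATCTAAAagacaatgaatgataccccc

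The Epha4 overlap of 16 bp came with another piece in the same read, 6151 bp at chr1:44267186-44273336, masked over 99.7% of its length. This piece had 12103 copies elsewhere and was like 9 of the 16 gaps of the largest group, at up to 96.6% identity. The order of pieces along the read is not in the tables, so whether it lay between the other pieces was not tested. Epha4 encodes a receptor for ephrins.

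Larger overlaps within the same-strand class were found in 12 of 67 reads of the 320 library, at 15 junctions, and in 0 of 11 reads of the 542 library, a difference that was not tested. In the 9 such reads with 2 alignments the overlap was 456 to 5125 bp, with a median of 2610 bp. The overlap stretch lay outside genes in 8 of the 9, though pieces of some of these reads reached genes. Beside this, 51.0% of unsplit alignment midpoints of the 320 library lay in genes, and the difference was not tested. The 5125-bp overlap was at chr7:31381766-31386890. In reads of more than 2 alignments, the largest overlaps of neighbours in genome order were 17816 and 15125 bp in 1 read with 4 alignments at chr17:3005914-3034194, and 9107 bp in 1 read with 3 alignments at chr13:23382051-23413696.

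Fold-backs had 2 alignments each, and in 30 of 32 reads the pieces covered the same reference bases on both strands. The overlap filled 98.2% to 100% of the shorter piece and was 569 to 17628 bp long, with a median of 2393.5 bp in the 542 library and 3859.5 bp in the 320 library. The widest overlap of the 542 library was 3762 bp at chr10:38790045-38795839. Next came 3684 bp in Prkacb, a catalytic subunit of protein kinase A, over exon and intron bases, and 2661 bp in an intron of the kinase gene Hipk2. In the 320 library the widest was 17628 bp at chr15:60872792-60891248. Next came 16714 bp in an intron of Zcchc7 (chr4:44792090-44824153) and 12519 bp over Sfi1 and Drg1 (chr11:3177941-3190491).

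The pieces lay closer to each other at the 3′ end of the longer piece. The closest pair of ends lay at the 3′ end of the longer piece in 22 of 30 reads and at its 5′ end in 8. The median distance between the pieces was 105.5 bp at the 3′ end and 740 bp at the 5′ end over both libraries. It was 165 and 1326.5 bp in the 6 reads of the 542 library, and 80 and 514 bp in the 24 of the 320 library. Ends met within 50 bp in 15 reads, all of the 320 library, and within 200 bp in 22 reads, 3 of them of the 542 library. The shorter piece had a median of 46.6% of the longer one's length in the 542 library and 83.4% in the 320 library. The 2 fold-backs without overlap were 51117 bp apart on chromosome 5 in the 542 library and 1003 bp apart on chromosome 11 in the 320 library, with both pieces in Glod4 and Vps53 and the longer one over a Vps53 exon.

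**Figure D5:**
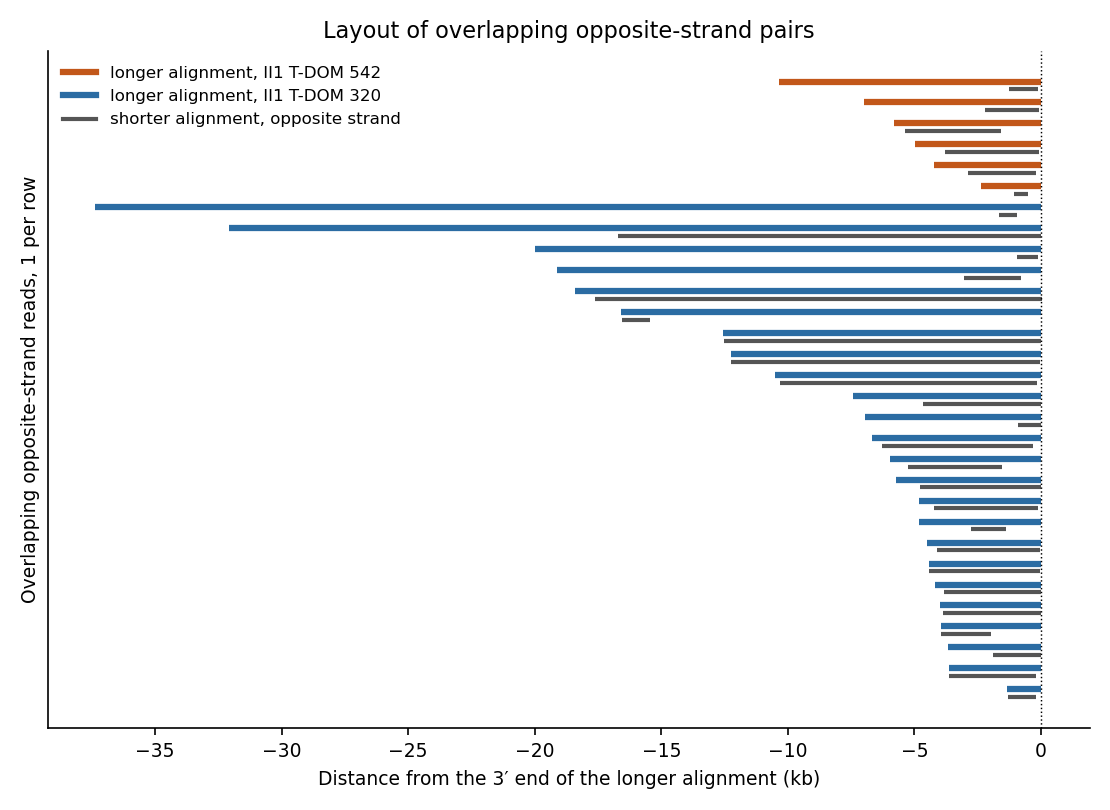
Layout of the 30 fold-back reads with overlap, 1 per line, with the longer piece coloured by library, the shorter one in grey and the distance from the 3′ end of the longer piece (kb) on the x axis. In 22 reads the shorter piece lies nearer to that end than to the 5′ end, with median distances of 105.5 and 740 bp.

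Reads joining different chromosomes numbered 38, of which 30 had 2 pieces, 15 with both on the same strand and 15 on opposite strands. Their shortest piece was small, with a median of 777.5 bp (118 to 22408 bp), and under 1 kb in 23. A piece masked over 90% or more was present in 9. The read with the most aligned bases in the 542 library, 24791, joined chr15:45577383-45579894 to chr8:59258341-59280619. Its chromosome 15 piece was masked over 90% or more, with 10469 copies elsewhere. The next joined Stk11ip to chr13:49014844-49015357 over 13346 aligned bases. After it came a read joining Rptor, the mTORC1 subunit gene, and Tprn over 10832 aligned bases. In the 320 library the most aligned bases were 45135, from chr18:28463958-28486684 to chr6:21705337-21727744 in the potassium channel gene Kcnd2. The next had 6 alignments over 32569 bases, and 1 of them, 6182 bp at chr5:27225248-27231429 in an intron of Dpp6, was like gaps of the largest group at up to 97.9% identity. Then came a read joining Ptprm, a receptor phosphatase gene, and chr4:39465903-39466184 over 25282 aligned bases.

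Reads with distant pieces on 1 chromosome numbered 7. In the 542 library they had 32911 aligned bases (the Epha4 read), 6204 (Hsdl2 and a place 15073169 bp away) and 3544 (pieces 182273 bp apart). In the 320 library those with the most had 17434, 13680 and 11074. The fourth had 4 alignments in intron bases of Dock2, with 136817 bp between the farthest, and neighbouring same-strand pieces overlapped by 2002 and 1987 bp.

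Reads with 4 or more alignments numbered 1 in the 542 library and 6 in the 320 library. The 542 read had 4 pieces, on chromosomes 13, 15, 16 and 2. In the 320 library, the reads at chr17:3005914-3034194 and Dock2 had 4 each, and the read with the Dpp6 piece had 6. Another read of 4 pieces lay on chromosomes 16, 17, 3 and 9, the last over an exon of Lars2, a mitochondrial leucyl-tRNA synthetase gene, with 1210 aligned bases. The read joining the Cmss1 place to chromosome 9 had 6, the longest of them 5833 bp at chr17:39842997-39848829 over an rRNA gene. Its other pieces were 313 to 589 bp long, with mapping qualities down to 40. A read of 5, 1 of the pair on chromosome 4, also had pieces on chromosomes 7 and 8. Whether chimeras made during library preparation, rearranged chromosomes or anything else gave any of the joins was not tested.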

How the data were processed

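Nanopore reads of 2 nCATS libraries of yolk sac DNA, genotypes II1TDOM 542 and II1TDOM 320, were analysed as deposited alignment tables, 1 per library. The authors called bases with Guppy, aligned reads to mm10 with minimap2 and wrote BED tables with SAMtools and bedtools. The study's methods state that primary alignments alone were kept, yet 436 reads are listed with several alignments, and every split read depends on these. At which step they were kept was not stated. The deposited score column is the mapping quality of each alignment. The tables hold no read sequence, no alignment flags and no order of pieces along the read. Members and lists were chosen with earlier results of these data known. Alignments were grouped by read name, and reads were kept as the opening describes. Edges were read on RefSeq GRCm38 and genes taken from GENCODE. Copies of a gap were found with minimap2 2.31 at 80% cover and 90% identity. Libraries were compared by Fisher's exact test or an exact binomial test, two-sided, with Benjamini-Hochberg adjustment over length bins and over classes. Python 3.11.15, numpy 2.4.6, scipy 1.17.1, pysam 0.24.0, Biopython 1.88 and matplotlib 3.10.9 were used. The calls were tested on simulated data, with outcomes not reported here.

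Named reads were, per library, the 5 largest same-strand gaps and 3 largest overlaps, the 3 fold-backs with most overlapping bases and any without overlap, the 3 far and 3 different-chromosome reads with most aligned bases, any place shared by reads, any read of 4 or more alignments, and reads next to the limits. Genes were named from those at an edge or gap of such a read, and some were left out, among them Zfp982, Gm10807, Cdk8, Zim2 and Thap1. Other named reads and genes are stated as chosen after their values were seen. Alternatives tried were other mapping quality, distance, length, end and offset limits, reads of exactly 2 alignments, chromosomes X and Y, dropping failing alignments and counting per aligned base. The direct repeat search against the edges and that at any offset were chosen after seeing the data. Other experiments of the series were not analysed here.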

Additional observations from a re-analysis of the deposited data

How the results depend on the processing

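The higher share of split reads in the 320 library kept its direction and stayed past 0.05 under 6 alternatives, with ratios from 1.59 to 2.22, and reversed per Mb aligned (0.699, exact binomial p = 0.0891), where the longer reads of the 320 library enter the denominator. Within bins of aligned length, with the limit on these bins given above, no difference passed 0.05. At 20 kb or more the share was higher in the 542 library (11.1% against 4.73%). Of 32 recomputed class differences (320 minus 542), 29 kept their direction and 3 reversed, with no adjusted p under 0.05 in any. The opposite-strand difference of -2.42 percentage points became 0.612 at a mapping quality of 20 or more and 0.806 with near set at 10 kb. The different-chromosome difference of -9.68 became 2.14 for alignments of 1000 bp or more. The cause of these changes was not tested. Adjusted p ranged over the alternatives from 0.152 to 0.702 for the same-strand class, from 0.612 to 1 for opposite strands, from 0.152 to 0.702 for far pieces and from 0.188 to 1 for different chromosomes. Fold-backs with a shared end were 15 within 50 bp, 4 within 10 bp and 22 within 200 bp. Places with a direct repeat were 4 at equal offset within 30 bp, 3 within 15 bp and 5 within 60 bp. With searches chosen after seeing the data they were 29 for copies against the edges and 22 for 10 bp or more at any offset. With 1 library per genotype and 31 split reads in the 542 library, the size of difference in class shares that could be detected was not measured. The same-strand difference of 18.5 percentage points did not pass (Fisher's exact test, adjusted p = 0.287). Edges can lie some bases from the true end of a piece, and without read sequence the bases read at a junction were not seen. No paired analysis was possible because there was only 1 library per genotype.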

Other observations

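Separate unsplit reads that shared both ends within 50 bp were counted as well. In the 320 library 3 such pairs lay on opposite strands and 0 on the same strand, and in the 542 library there was no such pair.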
